A study of Mus musculus with 28 samples.

Results

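The genes described here are those of heat production in brown fat and the uncoupling proteins: Ucp1, Ucp2, Ucp3, Dio2, Ppargc1a, Ppargc1b, Prdm16, Elovl3, Adrb3 and Zic1. They were listed by name for their known roles, with earlier results of these data known. They were found through the gene name that the scanner files give each probe. Of the 10 genes listed, 9 had a probe by that rule, 15 probes in all, and all 9 were among the 21040 genes tested. Adrb3 was not analysed here.

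Brown fat burns fuel to make heat. Its mitochondria carry Ucp1, which lets protons leak back across the inner membrane so that the energy of respiration is released as heat instead of being stored as ATP. Cold activates the tissue through noradrenaline, beta-adrenergic receptors and cAMP, and the deiodinase Dio2 adds to this by making active thyroid hormone inside the cell. Ppargc1a and Ppargc1b are coactivators of mitochondrial gene programmes, Prdm16 is a transcriptional regulator that favours brown over muscle fate, Zic1 is a transcription factor that marks classical brown fat, and Elovl3 is a fatty acid elongase found in brown fat, liver and skin. Ucp2 and Ucp3 are relatives of Ucp1 in the same family of mitochondrial carriers. Ucp2 is made in many tissues and Ucp3 mainly in muscle and brown fat.

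The study grew liver organoids from single Lgr5+ cells and set their expression beside parental and unrelated tissues. All 28 samples were from C57BL/6 mice, and total RNA of each (Cy3) shared a 2-colour array with a commercial mouse reference RNA (Cy5). The tissues of wildtype mice were brown adipose tissue (BAT), muscle and white adipose tissue (WAT) with 3 arrays each, and adult liver and pancreas with 2 arrays each. Organoids kept in differentiation medium (DM) had 1 array and organoids kept in expansion medium (EM) had 2. From liver there were also, with 2 arrays each, duct cells sorted with the Mic1-1c3 antibody, a hepatocyte fraction, whole liver, liver 13 days and liver 3 days after the toxin CCl4, and cells sorted for Lgr5 6 days after CCl4. The labels give no age or sex and call the arrays biological replicates, except the DM array, which has none, and they do not say whether animals were pooled.

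Between 17.8 and 69.1% of probes were well above background in Cy3 on an array, with the lowest share on a pancreas array and the highest on a BAT array. The Cy3 signal of negative-control spots, after background subtraction, was 15.5 to 18.0 on the BAT arrays, against 87.0 to 132 on muscle and 86.5 to 104 on WAT arrays. Tissue markers did not separate the tissues fully. All 7 skeletal muscle markers were above background on every BAT array (mean log2 ratio 3.04 to 4.08), on the muscle arrays (5.30 to 5.50) and on WAT arrays 1 and 3 (4.31 and 4.32), against 6 of 7 and a mean of 0.61 on WAT array 2. All 6 fat cell markers were above background on every muscle array (4.38 to 5.17), at levels near those of BAT (5.05 to 5.12) and WAT (5.69 to 5.93). The mean of 7 white fat markers was 1.01 to 1.30 on muscle arrays and 1.04 to 1.34 on WAT arrays. Hepatocyte markers averaged 5.89 to 7.89 on liver tissue and hepatocyte arrays, and pancreas acinar markers 7.56 and 8.67 on pancreas arrays. The Lgr5-sorted arrays had macrophage markers at 6.53 and 3.92 and bile duct markers at -0.77 and -1.17, against bile duct markers at 1.81 to 2.64 in organoids and sorted duct cells. Liver 1 at day 13 after CCl4 held muscle markers at 2.55 and fat cell markers at 3.05, against -0.19 and 1.08 in liver 2. The part of these in the results was not tested. In these bulk samples, fewer cells of a type and less RNA per cell cannot be told apart.

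The probe for Ucp1 is shown because all Ucp1 values come from this one spot. It lies at chr8:85821788-85821847 of mm9 on the plus strand, per the files. On the same build the files place the probes that stand for Ucp2 at chr7:107647809-107647868, Ucp3 at chr7:107634291-107634350 and Elovl3 at chr19:46209762-46209821 (plus strand), and for Dio2 at chr12:91963235-91963294, Ppargc1a at chr5:51848928-51848987 and Zic1 at chr9:91255445-91255504 (minus strand).
Ucp1 probe: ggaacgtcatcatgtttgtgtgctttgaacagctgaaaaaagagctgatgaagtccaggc

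The stretch of 250 bases before to 50 bases after the start is shown for the 3 uncoupling proteins and Dio2, since Ucp1, Ucp3 and Dio2 were all highest in BAT while Ucp2 was not. Sequences are RefSeq's, build GRCm38.p6, 5′ to 3′ on the gene's strand, and 7 of the 9 genes had one. Capitals mark, on either strand and so also as its reverse complement, TGACG, the core of the cAMP response element. They also mark the GC box, GGGCGG, and the TATA box, searched as TATAAA.
Ucp1, chr8:83290098-83290397, plus strand: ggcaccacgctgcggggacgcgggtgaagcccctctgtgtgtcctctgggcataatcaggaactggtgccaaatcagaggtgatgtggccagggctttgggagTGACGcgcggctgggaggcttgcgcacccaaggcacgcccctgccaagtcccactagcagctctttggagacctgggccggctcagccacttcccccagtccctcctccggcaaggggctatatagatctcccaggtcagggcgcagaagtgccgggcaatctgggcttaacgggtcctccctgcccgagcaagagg
Ucp2, chr7:100493108-100493407, plus strand: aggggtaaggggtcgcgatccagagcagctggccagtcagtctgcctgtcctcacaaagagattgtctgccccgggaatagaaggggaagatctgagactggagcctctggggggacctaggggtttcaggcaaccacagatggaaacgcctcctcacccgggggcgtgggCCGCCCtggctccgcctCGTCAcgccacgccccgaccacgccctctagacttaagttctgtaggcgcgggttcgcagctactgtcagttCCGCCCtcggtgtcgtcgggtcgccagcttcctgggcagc
Ucp3, chr7:100472741-100473040, plus strand: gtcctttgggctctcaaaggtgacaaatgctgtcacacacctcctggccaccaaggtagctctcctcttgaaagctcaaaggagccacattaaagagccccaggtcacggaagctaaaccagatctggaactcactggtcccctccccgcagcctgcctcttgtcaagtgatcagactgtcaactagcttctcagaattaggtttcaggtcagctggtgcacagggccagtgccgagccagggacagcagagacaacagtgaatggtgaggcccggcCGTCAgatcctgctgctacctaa
Dio2, chr12:90738989-90739288, minus strand: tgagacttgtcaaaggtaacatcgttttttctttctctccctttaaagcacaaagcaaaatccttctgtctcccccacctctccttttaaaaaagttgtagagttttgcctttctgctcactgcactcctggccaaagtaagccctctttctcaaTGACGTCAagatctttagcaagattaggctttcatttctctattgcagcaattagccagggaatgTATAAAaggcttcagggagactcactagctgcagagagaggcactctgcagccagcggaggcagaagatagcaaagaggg

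TGACG was found on either strand in 5 of the 7 promoters, those of Ucp1, Ucp2, Ucp3, Dio2 and Ppargc1a, and in 20.8% of all 32851 promoters of the same length. Dio2 held it on both strands in overlap, from -95 to -91 and from -92 to -88 relative to the start, and was the 1 member with TATAAA, which 13.6% of all promoters held. The GC box, held by 35.7% of all promoters, was in those of Ucp2, Prdm16 and Zic1, and CCAAT, held by 37.4%, in those of Prdm16 and Zic1. GC content ran from 44.7% for Dio2 to 65.3% for Zic1, with 64.7% for Ucp1, against a median of 52.7% over all promoters. A match is a string of letters and no evidence of a site.

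All 9 genes were above background on all 3 BAT arrays, where 65.2 to 69.1% of all probes were. Of the 9, 7 had their highest group mean in BAT, though Ppargc1b overlapped muscle there and Prdm16 overlapped EM organoids. The share of all genes with their highest mean in BAT was not computed. In BAT against WAT, 8 of the 9 rose and none fell at a limma adjusted p under 0.05 and a log2 change of at least 1, which 19.0% of all genes passed (9.63% upward and 9.35% downward). The median log2 change of the 9 was 2.27, beside 0.03 for all genes. The exception was Ucp2, whose rise of 0.69 passed the test (adjusted p = 0.00282) but not the minimum. On the ratio that Agilent's software wrote, 3 of the 9 passed (Dio2, Ppargc1a and Zic1), and on the Cy3 signal alone 7 did. The shares of all genes called on these scales were 20.3% and 21.1%. BAT shared neither a slide nor a scan day with another group, so these cannot be told apart from tissue in any comparison with BAT. With WAT arrays 1 and 3 left out, only WAT array 2 remained, with no spread of its own. No member changed sign in BAT against WAT in that fit.

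**Figure D1:**
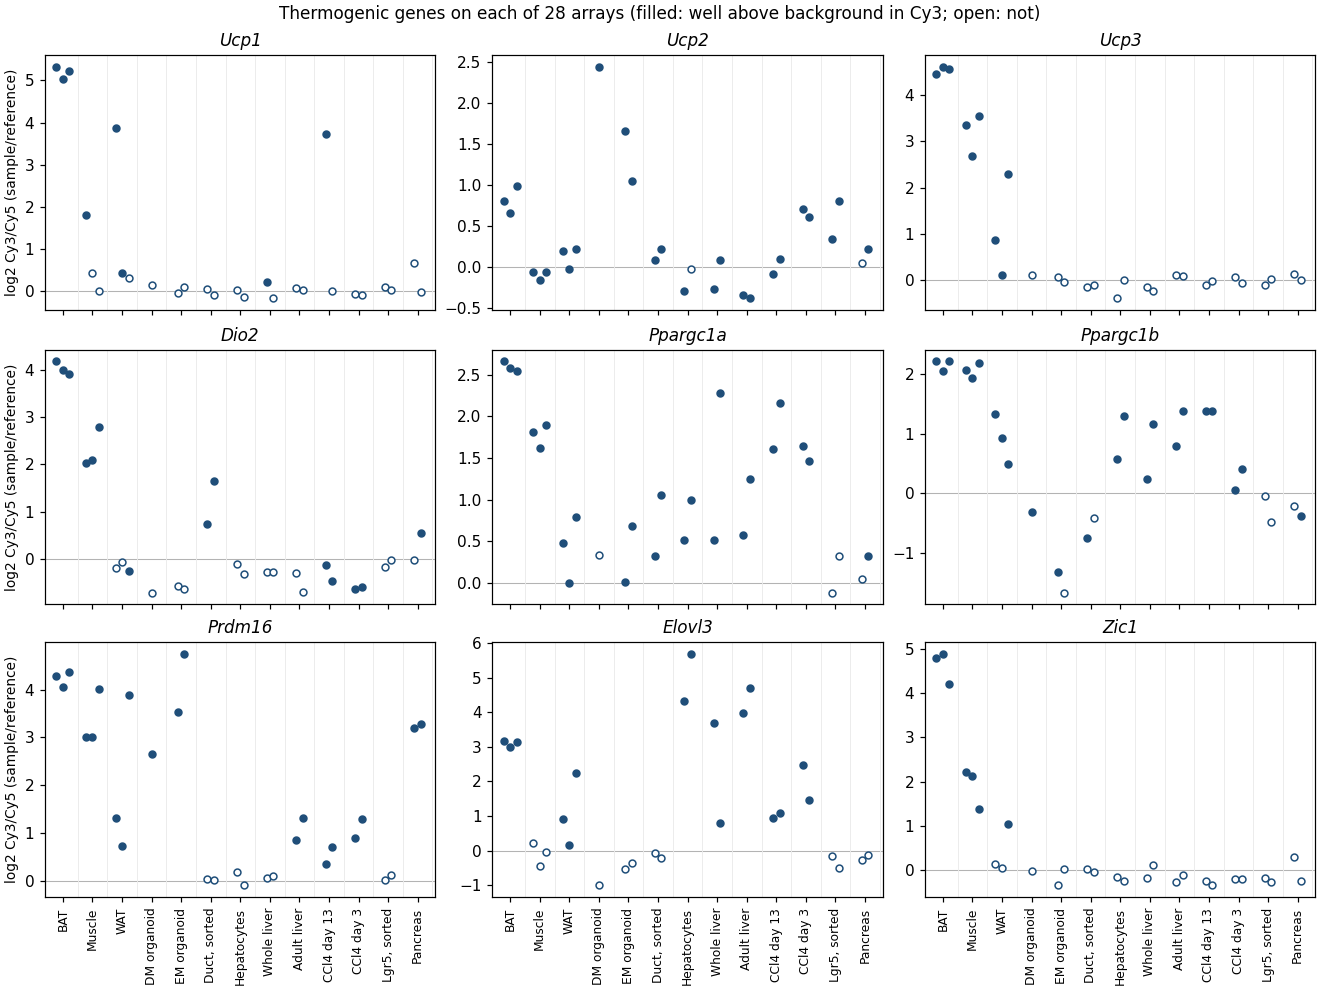
Log2 of Cy3 over Cy5 (sample over reference RNA, vertical axis) of 9 genes on each of 28 arrays, by group; filled points are well above background in Cy3, open points are not. BAT stands highest for Ucp1, Ucp3, Dio2, Ppargc1a and Zic1, DM and EM organoids for Ucp2, and hepatocytes and adult liver for Elovl3.

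Ucp1 stood highest in BAT by a wide margin. Its log2 ratio was 5.33, 5.03 and 5.22 in BAT, against 1.81, 0.42 and 0.01 in muscle and 3.88, 0.44 and 0.31 in WAT, and it stayed between -0.17 and 0.67 on 18 of the other 19 arrays. It was above background on 8 of 28 arrays: the 3 of BAT, WAT arrays 1 and 2, muscle array 1, whole liver array 1 at a ratio of only 0.22, and liver 1 at day 13 after CCl4 at 3.72. No BAT array overlapped any other array. The rise over WAT was 3.65 ± 0.78 (SE; limma adjusted p = 8.82e-04) and over muscle 4.45 ± 0.78 (adjusted p = 9.21e-05). Against adult liver, where no array was above background, the ratio was higher by 5.15 ± 0.87 (adjusted p = 5.7e-05). In the normalized Cy3 channel BAT was at least 1070-fold higher. Such "at least" folds, here and for other genes, are folds of Cy3 alone, taken against the lowest signal among probes above background on the arrays of the dim group. They are not folds of the ratio, which the p-values test. Without WAT array 1 the rise over WAT was 4.82.

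The order of groups below BAT could not be settled for Ucp1. CCl4 day 13, WAT and muscle followed with means of 1.87 ± 2.62 (SD, n = 2), 1.54 ± 2.02 (n = 3) and 0.75 ± 0.94 (n = 3), each set by 1 array, and their arrays overlapped. Liver 1 at day 13 was the only one of 4 CCl4 livers with Ucp1 above background, and its fat cell and muscle markers were the highest of the 4. The difference of the day 13 livers (3.72 and 0.01) from the day 3 livers (-0.07 and -0.10), 1.95, did not pass for Ucp1 (limma adjusted p = 0.286), and without liver 1 it was 0.10. WAT array 1, the WAT array with the most Ucp1, had muscle markers at 4.31. WAT array 3 had them at 4.32, and its Ucp1 was not above background. The part of other tissues in the Ucp1 values was not tested.

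**Figure D2:**
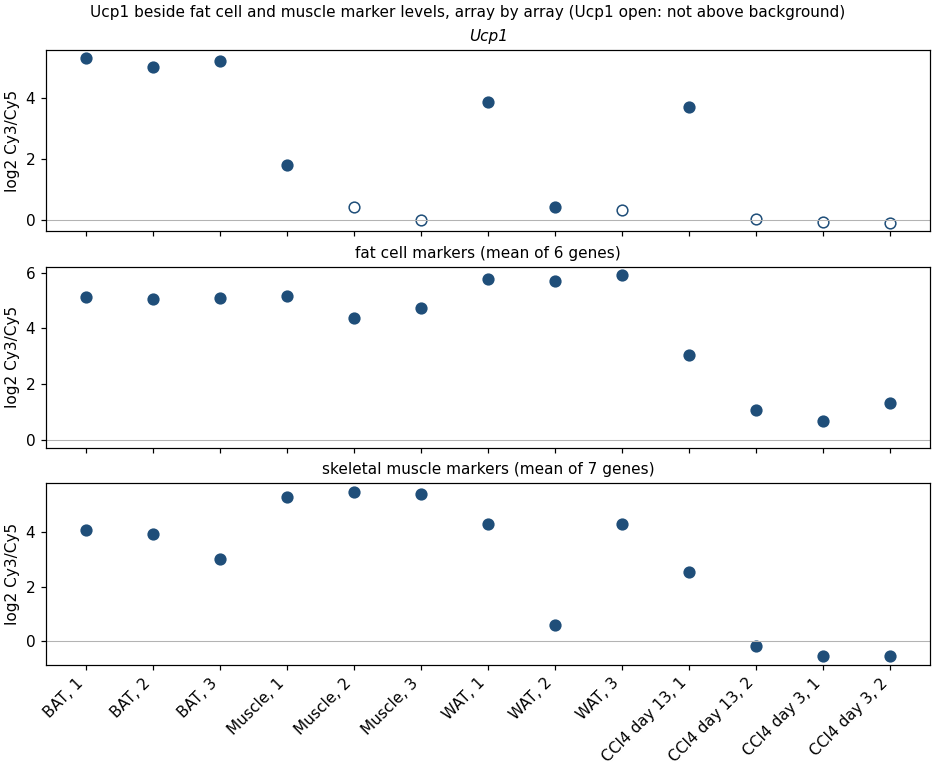
Log2 Cy3/Cy5 of Ucp1 (top) and the mean of 6 fat cell and 7 skeletal muscle markers (middle and bottom) on the arrays of BAT, muscle, WAT and CCl4 livers; open Ucp1 points are not above background. Outside BAT, Ucp1 was high on WAT array 1 and on liver 1 at day 13, with muscle marker means of 4.31 and 2.55. WAT array 3 had a muscle marker mean of 4.32, and its Ucp1 was not above background. The part of other tissues in the Ucp1 values was not tested.

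The size of the Ucp1 difference depended on the scale it was read on. After subtraction of the local background, the Cy3 signal of its spot was 228519, 220081 and 183649 on the BAT arrays, against 336, 152 and 133 on muscle arrays and 4934, 544 and 121 on WAT arrays. The Cy5 signal, which reads the reference RNA common to all arrays, was 13580.5, 15310 and 14383.5 on the BAT arrays, against 7.0 to 15.0 on muscle arrays and 200, 26 and 10 on WAT arrays. It did not exceed 25.0 on any array outside BAT and WAT. The signal in the reference channel thus moved with that of the sample, and in BAT it was 5.94 to 7.83% of it. On Cy3 alone, scaled to the 75th percentile of each array, BAT stood at 7.83, 7.60 and 7.91 log2 units, against 2.95, -0.55 and -4.57 in WAT. The difference was 8.503 ± 1.68 (limma adjusted p = 0.0014). No fold is read from it, since 1 of the 3 WAT arrays was not above background. The difference was 0.40 (adjusted p = 0.864) by Agilent's ratio, which was 5.35, 5.01 and 5.31 in BAT and 6.13, 6.05 and 2.31 in WAT.

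Cy5 moved with Cy3 for other members too. Cy5 of the Ucp3 spot was 94.0 to 166.5 on BAT arrays, against 23.0 to 31.0 on muscle and 3.0 to 24.0 on WAT arrays, and for Prdm16 it was 268 to 1182 on BAT arrays, against 33.0 to 88.0 on muscle and 51 to 54.0 on WAT arrays. Agilent's ratio for Ucp3 overlapped among the 3 tissues, at 5.12 to 5.53 in BAT, 5.02 to 5.40 in muscle and 4.98 to 5.37 in WAT. Cy5 of the Dio2 spot was 814 to 1903.5 on BAT arrays and at most 249 elsewhere, and of Zic1 61 to 77.5 and at most 55. For Ppargc1a it was 2065 to 2264.5 and at most 856.5, and for Ppargc1b 7225 to 7774 and at most 3316. For Elovl3 it was 925 to 1463 on adult liver, 394 to 898 on BAT and 56 to 71 on EM organoid arrays. The Ucp2 spot had Cy5 signals of 3438 to 3698.5 on BAT arrays, against 1929 to 2469.5 on muscle and 1640.5 to 2306.5 on WAT arrays, a narrower spread in these 3 tissues. Over all arrays outside BAT it ran from 90.5 to 2469.5. The cause of the Cy5 signal was not tested.

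**Figure D3:**
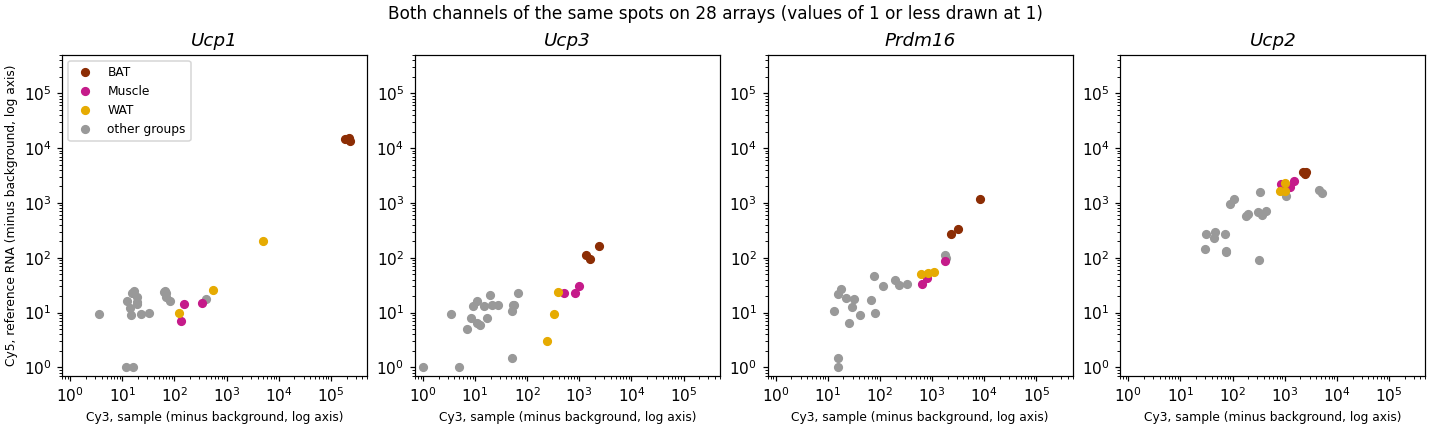
Cy5 signal of the reference RNA against Cy3 signal of the sample, both minus local background on log axes, for the spots of 4 genes; each point is an array, and values of 1 or less are drawn at 1. For Ucp1, Ucp3 and Prdm16 both signals were highest on the BAT arrays, with Cy5 up to 15310 for Ucp1.

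Ucp3 was found in BAT, muscle and WAT and on no array of the other 10 groups. Its log2 ratio was 4.46, 4.62 and 4.58 in BAT, against 3.36, 2.69 and 3.54 in muscle and 0.86, 0.11 and 2.29 in WAT. The 3 tissues did not overlap. BAT exceeded WAT by 3.46 ± 0.34 (limma adjusted p = 1.73e-07) and muscle by 1.36 ± 0.34 (adjusted p = 0.00241), and muscle exceeded WAT by 2.11 ± 0.34 (adjusted p = 7.92e-05). Neither the BAT differences (0.15 and 0.12) nor the muscle difference (0.03) passed on Agilent's ratio. On Cy3 alone the BAT differences were 2.77 and 1.70 and passed (adjusted p = 6.71e-04 and 0.0137), and muscle against WAT was 1.07 (adjusted p = 0.205). Against adult liver, BAT was at least 13.1-fold higher in Cy3. Of the WAT arrays, array 2, with the least muscle marker signal, had the lowest Ucp3. Arrays 1 and 3 had like muscle marker means (4.31 and 4.32) but Ucp3 of 0.86 and 2.29. The part of muscle in the Ucp3 values was not tested.

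Ucp2 followed another order. The DM organoid array had the highest log2 ratio, 2.44, and the EM organoids followed at 1.65 and 1.04, above BAT at 0.80, 0.66 and 0.99. Liver at day 3 after CCl4 (0.70 and 0.61) and Lgr5-sorted cells (0.35 and 0.81) came next and overlapped BAT. Adult liver was lowest, at -0.34 and -0.38. Ucp2 was thus 1.71 ± 0.21 higher in EM organoids than in adult liver (limma adjusted p = 8.53e-07), 1.20 ± 0.21 higher than in sorted duct cells (0.08 and 0.22; adjusted p = 9.41e-05), and 1.18 ± 0.19 higher in BAT than in adult liver (adjusted p = 3.03e-05). The EM differences passed on Cy3 alone (2.42 and 2.30) and on Agilent's ratio (1.90 and 1.22).

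The rise of Ucp2 in DM over EM organoids was 1.09 ± 0.25 (limma adjusted p = 0.00559). It passed on Cy3 alone (1.59, adjusted p = 0.0199) but not on Agilent's ratio (0.98, adjusted p = 0.191). DM had a single array, which the fit takes to vary like the other groups. Without EM array 2, on the same slide as DM, the difference was 0.79 and under the minimum, and within that slide it was 1.40. A second Ucp2 probe gave 2.35 for DM and 2.57 and 0.48 for EM, and the third was above background on the 3 BAT arrays only. The Y-linked gene Ddx3y, looked at because of its values, was above background on the DM array and on neither EM array. At day 13 after CCl4 Ucp2 was -0.08 and 0.10, below 0.70 and 0.61 at day 3, a change of -0.65 ± 0.21 that did not pass (adjusted p = 0.0541).

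Dio2, which turns thyroxine into the active hormone, had log2 ratios of 4.18, 4.01 and 3.91 in BAT, against 2.04, 2.10 and 2.79 in muscle and -0.18, -0.07 and -0.26 in WAT, where 1 of 3 arrays was above background. The tissues did not overlap. BAT exceeded WAT by 4.20 ± 0.22 (limma adjusted p = 7.43e-11) and muscle by 1.72 ± 0.22 (adjusted p = 2.73e-06), and muscle exceeded WAT by 2.48 ± 0.22 (adjusted p = 7.76e-08). On Cy3 alone the differences were 7.35, 3.47 and 3.88. By Agilent's ratio they were 5.13, 1.49 and 3.64, and BAT against muscle no longer passed (adjusted p = 0.0862). Against adult liver, BAT was at least 39.4-fold higher in Cy3.

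Dio2 was also found in sorted duct cells, at 0.75 and 1.65, which no other liver group reached. Both day 13 and both day 3 CCl4 livers were above background too, at -0.46 to -0.13 and -0.63 to -0.60. The ratio in duct cells was above that in hepatocytes by 1.41 ± 0.27 (limma adjusted p = 3.31e-04), and that in EM organoids differed from duct cells by -1.80 ± 0.27 (adjusted p = 2.44e-05). Neither hepatocytes nor EM organoids had an array above background. In Cy3 duct cells were at least 3.96-fold above hepatocytes and EM organoids at least 4.13-fold below duct cells, or 2.53 and 2.49-fold against the 5th percentile of the probes above background instead of the lowest. Without duct array 2, the difference from hepatocytes was 0.96, under the minimum. Within the slide of each replicate number the duct cells were 0.84 and 1.97 above hepatocytes. The mean of 3 endothelial markers was 2.84 and 4.08 in the duct cells, against 0.81 and 0.83 in hepatocytes, and -0.34 and -0.18 in EM organoids, and its part in the Dio2 result was not tested.

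The coactivators Ppargc1a and Ppargc1b were broader. Ppargc1a had 2.66, 2.58 and 2.55 in BAT, against 1.81, 1.62 and 1.90 in muscle and 0.48, -0.003 and 0.79 in WAT. BAT exceeded WAT by 2.18 ± 0.34 (limma adjusted p = 4.02e-05), and muscle exceeded WAT by 1.35 ± 0.34 (adjusted p = 0.00516). The first passed on both other scales, and the second on neither (adjusted p = 0.133 on Cy3 alone and 0.116 on Agilent's ratio). Its difference between BAT and muscle, 0.82 ± 0.34, did not pass (adjusted p = 0.0519), though the arrays did not overlap. The other Ppargc1a probe read 4.21, 4.18 and 3.45 in BAT, against 1.96, 1.505 and 1.93 in muscle, and with the mean of the probes the difference was 1.48 (adjusted p = 2.07e-04). CCl4 livers had 1.61 and 2.16 at day 13 and 1.64 and 1.47 at day 3, between adult liver (0.57 and 1.25) and BAT. Whole liver array 2 (2.28) lay far above array 1 (0.52).

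Ppargc1b had 2.22, 2.05 and 2.22 in BAT, against 2.07, 1.94 and 2.19 in muscle, which overlapped (0.10, 95% interval -0.43 to 0.62), and 1.33, 0.93 and 0.49 in WAT. Both BAT (1.25 ± 0.25, limma adjusted p = 5.25e-04) and muscle (1.15 ± 0.25, adjusted p = 0.00167) exceeded WAT, but neither did on Agilent's ratio (adjusted p = 0.116 and 0.3). Another of its 3 probes, annotated to the transcript AK042378, read 4.05, 3.80 and 4.26 in BAT, against 2.96, 2.87 and 3.08 in muscle. The remaining probe, annotated to the same transcript as the main one, read 2.34 to 2.74 in BAT and 1.80 to 2.24 in muscle. BAT and muscle thus overlapped on the main probe only. The lowest levels were those of the EM organoids, -1.32 and -1.67, against 0.80 and 1.38 in adult liver, a fall of 2.59 ± 0.31 (adjusted p = 7.11e-07). Of the 2 EM arrays, 1 was above background.

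Within the liver, Ppargc1b was above background on 1 of the 2 sorted duct arrays. It was lower in sorted duct cells (-0.75 and -0.42) than in hepatocytes (0.58 and 1.29), by 1.52 ± 0.31 (limma adjusted p = 4.95e-04). It was higher at day 13 after CCl4 (1.38 and 1.39) than at day 3 (0.06 and 0.41), by 1.15 ± 0.31 (adjusted p = 0.0206), and on the other 2 probes as well both day 13 livers were above both day 3 livers. That call did not hold on Cy3 alone or on Agilent's ratio (1.28 and 1.16, adjusted p = 0.22 and 0.384), or without any one of the 4 arrays. The DM array stood at -0.32, above EM by 1.18 ± 0.38 (adjusted p = 0.0426), a call lost without either EM array.

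Prdm16 was high outside fat as well. It had 4.28, 4.06 and 4.38 in BAT, but also 3.52 and 4.75 in EM organoids, 2.65 in the DM array, 3.01, 3.02 and 4.01 in muscle, and 3.19 and 3.28 in pancreas. In WAT it was 1.32, 0.72 and 3.88. BAT exceeded WAT by 2.27 ± 0.51 (limma adjusted p = 0.00155), but by Agilent's ratio BAT was lower by 0.54 (adjusted p = 0.474), and on Cy3 alone it was higher by 1.93 (adjusted p = 0.00965). The difference between BAT and muscle did not pass (0.90 ± 0.51, adjusted p = 0.163), though on Cy3 alone BAT was 2.40 higher (adjusted p = 0.00117).

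In the organoids, Prdm16 was 3.06 ± 0.63 higher in EM than in adult liver, at 0.84 and 1.32 (limma adjusted p = 4.47e-04), and 4.11 ± 0.63 higher than in sorted duct cells, where no array was above background (adjusted p = 2.87e-05; at least 17.4-fold in Cy3). Both passed on Cy3 alone (4.63 and 6.62) and on Agilent's ratio (1.70 and 4.82). Both adult liver arrays and all 4 CCl4 livers had it above background, the latter at 0.34 to 1.29. Neither hepatocytes, whole liver nor Lgr5-sorted cells did. Of all probes, 33.1 to 40.2%, 35.5 to 44.7% and 18.5 to 21.0% were above background on the arrays of these 3 groups. The share was 46.8 to 60.9% for adult liver, 61.3 to 61.9% at day 13 and 61.6 to 62.7% at day 3 after CCl4. The only Prdm16 probe is placed by the files at just 5 of its 60 bases, which does not show the rest of its target.

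Zic1 was confined to BAT, muscle and WAT array 3 among the arrays above background. It had 4.81, 4.90 and 4.21 in BAT, against 2.22, 2.12 and 1.38 in muscle and 0.14, 0.03 and 1.04 in WAT. BAT exceeded muscle by 2.74 ± 0.26 (limma adjusted p = 4.52e-08) and WAT by 4.24 ± 0.26 (adjusted p = 4.32e-10), and both differences passed on Cy3 alone (2.70 and 4.82) and on Agilent's ratio (2.53 and 5.12). Muscle exceeded WAT by 1.504 ± 0.26 (adjusted p = 1.58e-04), a call lost on Cy3 alone (2.12, adjusted p = 0.0528). The other Zic1 probe overlaps this one in sequence and read 4.76, 5.001 and 4.30 in BAT. In Cy3 BAT was at least 11.4-fold above adult liver.

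**Figure D4:**
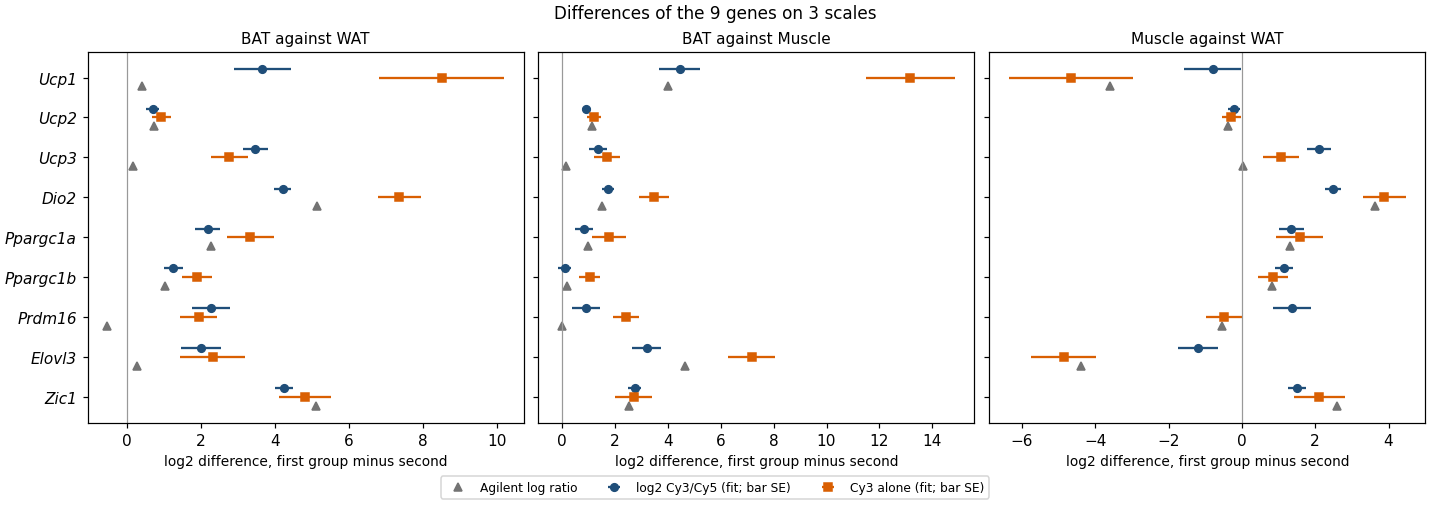
Log2 differences of the 9 genes in BAT against WAT, BAT against muscle and muscle against WAT on 3 scales: the background-corrected ratio and Cy3 alone (circles and squares, with SE) and Agilent's ratio (triangles, no error). Ucp1 runs from 0.40 to 8.503 in BAT against WAT by scale, Dio2 and Zic1 stay above 4 on all 3, and Prdm16 lies below 0 on Agilent's ratio. Cy3 values of arrays not above background are included.

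Elovl3 was the member with its highest levels in liver. Hepatocytes had 4.32 and 5.69 and adult liver 3.97 and 4.70, BAT 3.17, 3.01 and 3.13, and WAT 0.91, 0.17 and 2.24. No muscle array was above background. BAT exceeded WAT by 2.00 ± 0.55 (limma adjusted p = 0.0065), a call lost on Cy3 alone (2.31, adjusted p = 0.0675) and on Agilent's ratio (0.25, adjusted p = 0.775), and muscle by 3.20 ± 0.55 (adjusted p = 7.34e-05; at least 11.2-fold in Cy3). Between BAT and adult liver the difference did not pass on the ratio (-1.23, adjusted p = 0.105), while on Cy3 alone BAT was lower by 3.76 (adjusted p = 0.00478). The ratio differed by -4.78 ± 0.67 in EM organoids against adult liver (adjusted p = 6.05e-06) and by -5.15 ± 0.67 in sorted duct cells against hepatocytes (adjusted p = 3.38e-06). In Cy3 these were at least 109-fold and at least 136-fold lower, or 56.8 and 80.8-fold against the 5th percentile.

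Elovl3 split the whole liver arrays, with 3.68 on array 1 and 0.81 on array 2. Hepatocytes were above whole liver by 2.76 ± 0.67 (limma adjusted p = 0.0503). With the replicate number, which in these groups is also the slide, as a block the adjusted p was 0.0484, and without whole liver array 1 the difference was 4.20 (adjusted p = 4.53e-04), against 1.33 without array 2. After CCl4, Elovl3 was 0.94 and 1.09 at day 13 and 2.46 and 1.46 at day 3 (-0.95 ± 0.67, adjusted p = 0.578). The Y-linked gene Ddx3y was above background on both hepatocyte, both adult liver and both day 3 arrays and on whole liver array 1 (1.36 to 2.35), and below it on whole liver array 2 (-0.69) and on both day 13 arrays (-1.86 and -1.70). The 3 liver arrays without it were the 3 with the lowest Elovl3. Presence of Ddx3y and CCl4 day cannot be told apart, since each day had it on all of its arrays or on none, and the part of sex in the Elovl3 values was not tested.

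**Figure D5:**
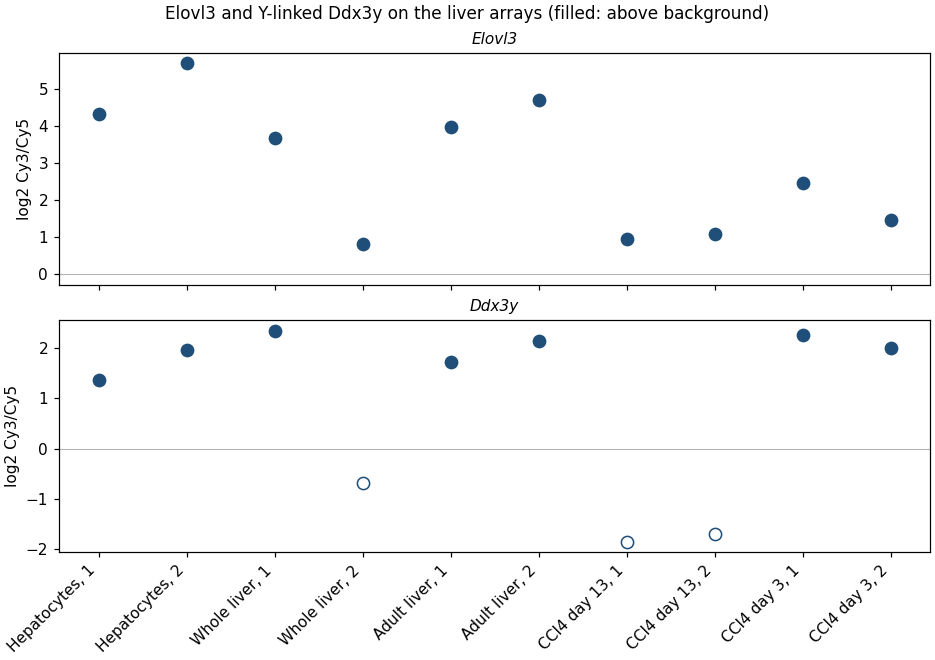
Log2 Cy3/Cy5 of Elovl3 (top) and of the Y-linked gene Ddx3y (bottom) on the 10 liver tissue and hepatocyte arrays; open points are not above background. Whole liver array 2 and both day 13 arrays lack Ddx3y and have the lowest Elovl3, 0.81 to 1.09.

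Counted by comparison, 5 of the 9 members rose and none fell in BAT against muscle (Ucp1, Ucp3, Dio2, Elovl3 and Zic1), beside 23.8% of all genes called (10.6% up and 13.2% down). On Cy3 alone 8 rose, beside 28.9% of all genes called, and on Agilent's ratio 4, beside 28.5%. In muscle against WAT 5 rose and none fell (Ucp3, Dio2, Ppargc1a, Ppargc1b and Zic1), beside 12.6% of all genes (8.05% up and 4.59% down), and on the slide that held both tissues all 5 had the same sign. On Cy3 alone only Dio2 rose and Elovl3 fell, and on Agilent's ratio Dio2 and Zic1 rose and Elovl3 fell. The shares of all genes called on these scales were 12% and 11%. In BAT against adult liver 8 rose and none fell, beside 29.1% of all genes (15.8% up and 13.3% down). On Cy3 alone 8 rose and Elovl3 fell, and on Agilent's ratio 6 rose, without Ppargc1b and Prdm16. The shares of all genes called were 43.3% and 34.6%.

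Among the liver groups, 4 of the 9 members were called in EM organoids against adult liver, beside 32.0% of all genes (14.4% up and 17.6% down): Ucp2 and Prdm16 rose, Ppargc1b and Elovl3 fell, and all 4 were also called on the other scales. The array pair that shared a scan day gave the same 4 signs. In that comparison 37% of all genes were called on Cy3 alone and 34.9% on Agilent's ratio. In EM organoids against sorted duct cells 3 were called (Ucp2 and Prdm16 up, Dio2 down), beside 26.6% of all genes (12.4% up and 14.2% down). In sorted duct cells against hepatocytes 3 were called (Dio2 up, Ppargc1b and Elovl3 down), beside 23.4% (11.9% up and 11.5% down), with the same signs on both slides. In DM against EM organoids 2 rose (Ucp2 and Ppargc1b), beside 10.3% (6.25% up and 4.03% down), and at day 13 against day 3 after CCl4 1 rose (Ppargc1b), beside 5.67% (2.13% up and 3.54% down). None was called in hepatocytes against whole liver, beside 0.798% (0.423% up and 0.375% down). Whether the share of the 9 members called in EM organoids differs from that of all genes was not tested.

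Other genes of heat production were followed from lists by function. Of 22 other brown fat genes, 15 rose and 1 fell in BAT against WAT, beside 9.63% of all genes up and 9.35% down. The median log2 change of the 22 was 2.69, beside 0.03 for all genes. Otop1, a proton channel of brown fat, had the largest rise (6.37 ± 0.12, limma adjusted p = 2.32e-18), followed by the fatty acid transporter Slc27a2 (6.07), and each was above background on 1 of 3 WAT arrays. The gene that fell, Bmp8b, was above background on no array of either tissue. Against muscle, where neither was above background, 13 of the 22 rose and none fell, beside 10.6% of all genes up and 13.2% down, with Slc27a2 at least 47.7-fold higher in Cy3 and Otop1 at least 54.1-fold (35.8-fold against the 5th percentile). In EM organoids against adult liver 2 rose and 12 fell, beside 14.4% of all genes up and 17.6% down. Slc27a2 was lower by at least 491-fold in Cy3 (255-fold against the 5th percentile) and the deiodinase Dio1 by at least 55.4-fold (34-fold). The hormone-inactivating deiodinase Dio3 was at least 5.01-fold higher. Slc27a2 and Dio1 were also lower in BAT than in adult liver (log2 change -1.31 and -6.39). Dio1 was above background on no BAT array.

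Of 15 transcription factors tested, 9 rose and 1 fell in BAT against WAT, beside 9.63% of all genes up and 9.35% down. Esrrg (3.74), an orphan nuclear receptor, and Lhx8 (3.61) were highest and Irf4 (-1.40) lowest. Lhx8 was -0.10 by Agilent's ratio. In EM organoids against adult liver none rose and 6 fell, beside 14.4% of all genes up and 17.6% down. Rxrg was at least 13.6-fold lower in Cy3 (7.85-fold against the 5th percentile) and the fatty acid oxidation regulator Ppara at least 44.6-fold (24.4-fold). Of 12 genes of adrenergic signalling and lipolysis, 5 rose and 1 fell in BAT against WAT, beside 9.63% and 9.35% of all genes. The adrenergic receptor Adrb1 had 5.18 ± 0.35 (limma adjusted p = 2.28e-09) and the adenylate cyclase Adcy3 2.19, and the lipid droplet protein Plin1 -1.61, which turned to 0.15 on Cy3 alone.

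The other 2 lists hold related or alternative routes to heat. Of 10 genes of creatine and calcium cycling, 1 rose (Atp2a2, 1.29) and 1 fell (Gatm, -1.70) in BAT against WAT. Of all genes, 9.63% rose and 9.35% fell there. In BAT against muscle 6 fell and none rose (median -1.77), beside 13.2% of all genes down and 10.6% up. In muscle against WAT 7 rose and none fell (median 2.71), beside 8.05% of all genes up and 4.59% down. The falls in BAT against muscle were led by Gatm (-4.88) and the muscle calcium pump Atp2a1 (-2.95). Of 9 other mitochondrial carriers, 1 rose (the carnitine carrier Slc25a20, 2.61) and 1 fell (the dicarboxylate carrier Slc25a10, -1.52) in BAT against WAT. Of all genes, 19.0% were called in that comparison.

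Over the 13 group means the members formed no single pattern. Zic1 correlated with Ucp3 at Pearson r = 0.97, with Dio2 at 0.93 and with Ucp1 at 0.87, and Ucp3 with Dio2 at 0.90, whereas Ucp1 and Ucp2 gave 0.04 and Ucp2 and Elovl3 -0.50. These groups share the reference RNA, and BAT is the highest of them for Zic1, Ucp3, Dio2 and Ucp1. The genes tested whose group means were most like those of Ucp1 were 2310001K24Rik (0.96), the transcript AK041561 (0.95), Olfr190 (0.94), Adig (0.94) and D3Ertd751e (0.94), also over 13 groups. Kcnd2 (0.99), Cldn22 (0.99) and Zfp641 (0.99) were most like Zic1, Cntfr (0.96), Ism1 (0.96) and Pde4d (0.96) most like Dio2, and Mlph (0.93) and Prr15 (0.93) were among the 3 most like Ucp2.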

How the data were processed

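Per the file headers, the authors scanned 2-colour Agilent arrays and quantified them with Feature Extraction 10.5.1.1 (8.5.1.1 per the submitters' processing notes). The deposited intensity values are spot and local background signals, and the deposited log10 ratios of Cy5 over Cy3 are background-subtracted and dye-normalized. The deposited value table holds these same log10 ratios. Here the intensity values were background-corrected (normexp, offset 50) and loess-normalized within each array, and log2 Cy3/Cy5 was computed from the deposited signals. Control and outlier spots were left out, and 31075 probes above background on at least 2 arrays stood for 21040 genes, each by 1 probe. Gene names came from RefSeq tables for 16791 genes and from the files for 4249. All groups were fitted with limma 3.58.1 in R 4.3.3, with Benjamini-Hochberg adjustment over all genes, and the script was tested on simulated data.

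"At least" folds are of the Cy3 channel after loess and Aquantile normalization, open to dye bias, and set the bright group against, per array of the dim group, the lowest signal among probes above background or the probe's own if higher. "Cy3 alone" is log2 of the authors' processed Cy3 intensity minus the 75th percentile of the array, and "Agilent's ratio" the deposited log10 ratio turned to log2 Cy3/Cy5. Precision is limited by the number of arrays. The members and gene lists were chosen with earlier results of these data known. Of each list, the 2 largest rises and falls called were eligible to be named, and of each member the genes most like it. Replicate numbers pair duct cells, hepatocytes and whole liver, where a number is also a slide per the file headers (correlation of deviations 0.433 for duct cells and hepatocytes and 0.387 for hepatocytes and whole liver). Leaving out WAT arrays 1 and 3, and crossing the CCl4 numbers, were alternatives chosen after seeing the data.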

Additional observations from a re-analysis of the deposited data

Results flagged for a closer look

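Prdm16 was above background on both pancreas arrays, which enter no comparison here, with a mean log2 ratio of 3.23 and values of 3.19 and 3.28, whereas the highest of the liver tissue arrays was at 1.32. Its Agilent ratio on these arrays was 5.37 and 6.55. The difference was not tested.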

How the results depend on the processing

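The count of members called moved most with the scale. On Agilent's ratio it was 3 of 9 in BAT against WAT, 3 in muscle against WAT, and 0 both in DM against EM organoids and in day 13 against day 3 after CCl4. The shares of all genes called there were 20.3%, 11%, 5.51% and 4.11%. On Cy3 alone it was 8 in BAT against muscle, 2 in muscle against WAT, 1 in DM against EM and 0 in day 13 against day 3. The shares of all genes called there were 28.9%, 12%, 6.29% and 4.1%. Without background subtraction it was 1 in DM against EM and 1 in hepatocytes against whole liver. The mean of probes gave 0 in DM against EM. For hepatocytes against whole liver, detection on every array of a group gave 1, and the slide or the scan day as a random block gave 1. With the replicate number as a block it was also 1 there (Elovl3), and apart from Prdm16 in muscle against WAT, where the numbers share no slide (adjusted p = 0.0128 with the block), it changed no other call followed. With the day 3 numbers crossed, after a correlation of -0.111, the CCl4 count was 1. Leaving out 1 array at a time gave 8 to 8 in BAT against WAT, 5 to 5 in BAT against muscle, 5 to 6 in muscle against WAT, 7 to 8 in BAT against adult liver, 4 to 4 in EM against adult liver, 3 to 4 in EM against duct cells, 2 to 3 in duct cells against hepatocytes, 0 to 1 in DM against EM, 0 to 2 in hepatocytes against whole liver and 0 to 1 after CCl4. Without day 13 array 2 the 1 member called was Ucp1, at 3.80.

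Of 173 log2 changes followed, these reversed. On Agilent's ratio Prdm16 was -0.54 in BAT against WAT, -0.001 in BAT against muscle, -0.54 in muscle against WAT and 0.047 after CCl4, Lhx8 -0.10 in BAT against WAT, and Elovl3 0.79 in DM against EM. On Cy3 alone Plin1 was 0.15 in BAT against WAT and 5.13 in BAT against muscle, Prdm16 -0.47 in muscle against WAT, and Elovl3 1.44 in DM against EM. Without background subtraction Prdm16 was -0.14 in muscle against WAT. Ucp1 in muscle against WAT ran from -1.41 to 0.37 with 1 WAT or muscle array left out, highest without WAT array 1, and was 0.31 without WAT arrays 1 and 3, and Ppargc1a in hepatocytes against whole liver ran from -1.52 without whole liver array 1 to 0.24 without array 2. The cause was not tested.

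Over all genes, Agilent's ratio called 3655 higher and 2351 lower in BAT against muscle, beside 2228 and 2782, 1152 and 1153 in muscle against WAT, beside 1694 and 966, 572 and 587 in DM against EM, beside 1315 and 847, and 80 and 331 in hepatocytes against whole liver, beside 89 and 79. Cy3 alone called 1300 and 1228 in muscle against WAT, 3957 and 5143 in BAT against adult liver, beside 3331 and 2794, 770 and 554 in DM against EM, and 63 and 145 in hepatocytes against whole liver. In duct cells against hepatocytes Agilent's ratio called 4265 and 3414, beside 2504 and 2428. The median of all genes on these scales was 0.16, 0.22 and 0.22 by Agilent's ratio in BAT against WAT, muscle and adult liver, beside 0.03, 0.01 and 0.03, and ran from -0.32 in EM against duct cells to 0.28 in DM against EM on Cy3 alone. Ratios of arrays not above background carry little signal, and groups have 1 to 3 arrays.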
